A study of Mus musculus with 3 samples.

Results

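Olfactory receptor genes of the mouse autosomes other than chromosomes 2 and 7 had 537 promoters on a custom array of mouse promoters, of 16483 promoters in all. The members were chosen by name and place alone: every probe outside the array's controls whose gene name was Olfr followed by a digit and whose position was on such an autosome. This gave 6052 of 237203 probes, spread over 14 chromosomes. No measured value entered this rule, although it was set with earlier results of these data known. Of the 537 names, 512 were current symbols of the RefSeq gene table, 20 were synonyms of 1 gene and 5 were not matched, and all are given as on the array. A promoter was tested where at least 3 probes were usable on every array, which held for 509 members and for 16164 promoters in all, and the other 28 members had fewer. The filter asked only for probes and not for signal.

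The samples were C2C12 cells, an established mouse myoblast line, which per the labels were arrested in G0 (a reversible exit from the cell cycle) as a suspension in 2% methylcellulose and then crosslinked in 1% formaldehyde, which 0.125 M glycine stopped. No genetic change or drug is named in the labels, and all arrays shared this arrest, so that no growing cells stand beside them. On 2 arrays the Cy5 channel held DNA precipitated with an antibody against PRDM2, a zinc finger protein with a histone methyltransferase domain, and on 1 array DNA precipitated with an antibody against H3K9me2, histone H3 dimethylated at lysine 9. The Cy3 channel held input DNA on all 3 arrays, and dyes were never exchanged. A control antibody's array was left out of the work here. The labels do not say that the PRDM2 arrays came from separate cultures, so the p-values below reflect no more than how these arrays varied, which may be technical, and the H3K9me2 array has no replicate. The arrays identify no cell type, and the labelled line was not checked against markers because no RNA was measured.

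Olfactory receptors are the largest family of G protein-coupled receptors in the mouse, and their genes stand in clusters on many chromosomes. A sensory neuron of the nose expresses 1 allele of 1 receptor gene and keeps the others silent. In those neurons the silent receptor genes are known to lie in heterochromatin marked by methylation of histone H3 lysine 9 and histone H4 lysine 20, and outside the nose most receptor genes are silent. Receptor promoters are poor in G and C and mostly lack CpG islands, which sets them apart from the promoters of widely used genes.

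The base composition of the arrayed sequences is shown first, because it went along with most of the values that follow. Each line gives 1 probe, 5′ to 3′ as on the array, with CpG dinucleotides in capitals. The first has the highest GC content of all member probes (71.1%), the second the lowest (16.7%), and the next pair are 2 probes at the members' median GC content (36.7%).

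Olfr94, chr17:36805362-36805406: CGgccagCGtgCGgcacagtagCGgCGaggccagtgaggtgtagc

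Olfr901, chr9:38180423-38180482: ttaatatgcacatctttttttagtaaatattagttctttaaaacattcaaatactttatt

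Olfr1416, chr1:94311432-94311491: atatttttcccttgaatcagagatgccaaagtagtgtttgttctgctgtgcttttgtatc

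Olfr1415, chr1:94323312-94323371: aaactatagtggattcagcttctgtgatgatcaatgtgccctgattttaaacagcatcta

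Coordinates follow the deposited files, and the sources used here do not give their genome build. The probe of Olfr94, with 5 CpG dinucleotides, read 5.12 and 4.06 on PRDM2 arrays 1 and 2 and 2.72 on the H3K9me2 array. These values are log2 ratios of IP over input signal after each array's median probe was set to 0, so that 1 is a doubling relative to that probe. The probe of Olfr901 read 0.38, 0.75 and -0.11, and its signal was not well above background in either channel on any array. The probes of Olfr1416 and Olfr1415 have the same GC content, yet the first read 1.63, 0.19 and 1.94 and the second -0.94, -0.85 and -1.78.

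A further set shows the probes at the ends of the range of the antibodies. Among member probes with input well above background on every array, the first had the highest minimum over the PRDM2 arrays, and the second had the highest H3K9me2 value. The third had the lowest maximum over the PRDM2 arrays among all member probes.

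Olfr314, chr11:58603360-58603404: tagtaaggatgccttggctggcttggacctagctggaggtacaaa

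Olfr19, chr16:16589063-16589122: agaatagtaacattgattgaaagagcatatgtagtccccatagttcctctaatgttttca

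Olfr837, chr9:18885711-18885770: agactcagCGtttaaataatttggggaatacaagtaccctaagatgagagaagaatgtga

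The probe of Olfr314 read 6.26 and 6.31 on the PRDM2 arrays and 0.95 on the H3K9me2 array. The probe of Olfr19 read -0.60, -0.21 and 4.54, so that H3K9me2 alone was high there. The probe of Olfr837 read -2.14, -2.09 and 0.56, but its IP signal was not well above background on any array.

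The 6052 member probes had a median GC content of 36.7%, against 41.8% for 220199 named probes of genes that are no chemosensory receptors. No CpG was present in 76.8% of the member probes and in 48.0% of the non-receptor probes. A member promoter had a median of 12 probes over 2857 bp, against 15 probes for all promoters. Cross-hybridization between near-identical receptor genes could blur such a family, and it was not tested. Of the 6052 member probes, 2 shared a stretch of 30 bases with a probe of another promoter. That count compares probes with each other alone. Whether a probe also matches receptor sequence outside the arrayed probes, or matches with mismatches, was not tested.

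Signal was low at the receptor probes. The median input signal of the member probes on the H3K9me2 array was 119.5 intensity units, against 803 for non-receptor probes. Input was well above background at 62.9% of the member probes on that array and at 94.5% of the non-receptor probes. On PRDM2 arrays 1 and 2 the shares were 89.5% and 94.1% of the member probes, against 98.5% and 99.3%. The IP channel was bright in this sense at 43.4%, 45.5% and 58.4% of the member probes (PRDM2 arrays 1 and 2, H3K9me2 array), against 77.6%, 72.7% and 80.1% of the non-receptor probes. A ratio of signals near background is poorly measured, and results that rest on dim probes are given below with the number of probes that were bright.

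The median PRDM2 value of the receptor promoters was close to the midpoint of each array. The promoter value, the mean over its probes, ran from -1.27 to 2.88 on array 1 with a median of 0.19, and from -1.07 to 1.86 on array 2 with a median of 0.08. Over all 16164 promoters the medians were 0.58 and 0.43. Both PRDM2 arrays were above 0 at 228 of the 509 members and both below 0 at 116. In limma's test of the mean against 0, with Benjamini-Hochberg adjusted p under 0.05 over all promoters, 67 members were higher (13.2%), where 46.9% of all promoters were, and 6 members were lower (1.18%), where 1.08% were. Relative to the median promoter of each array in place of the median probe, 13 members were higher (background 17.2%) and 151 lower (background 13%). The choice moved the median PRDM2 value of all promoters by 0.50, so that calls are relative to the point taken as 0. The 13 were all among the 67, and the 6 lower calls were among the 151. The share of promoters called higher varied with GC content, and the shares by GC class are given below.

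The means of the 67 higher members leaned on their highest probe to an unequal degree. Their median promoter mean was 0.78, the median of their highest probe was 3.2, and without that highest probe the median of the promoter means was 0.47. The mean stayed above 0.5 at 32 of the 67 without the highest probe, and the median probe lay above 0 on both PRDM2 arrays at 55 of them. Taking out the highest probe lowers any mean, and the lowest of the 67 means was 0.53 with it. No like figures are given for the other called promoters, so that no contrast with them is drawn. With the median over probes in place of the mean, 5 members were higher (0.982%), where 5.69% of all promoters were, and all 5 were among the 67. The higher members had a median GC content of 34.4% and a log2 input of -0.80 and -0.76 on the PRDM2 arrays relative to all probes of like GC content. The 436 members that were not called had a median GC content of 36.2% and an input of -0.46 and -0.21. With probes of bright input alone, 428 members could be tested, of which 72 were higher (16.8%, background 48.9%) and 10 lower (2.34%, background 1.37%). Of the 67, 47 could be tested on those probes and 36 were called higher again.

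The 8 highest members by PRDM2 mean among the calls were Olfr815, Olfr380, Olfr724, Olfr194, Olfr746, Olfr1395, Olfr734 and Olfr847, all odorant receptor genes. Olfr815 (chr10:129305070-129306405) read 2.59 and 1.36 on the PRDM2 arrays (mean 1.97 ± 0.87, SD, n = 2, limma adjusted p = 0.000267) and 1.22 on the H3K9me2 array, but input was well above background at 1, 2 and 1 of its 4 probes. Olfr380 read 2.88 and 0.63, a spread between arrays as wide as its mean of 1.76 (SD 1.59, n = 2, limma adjusted p = 0.00355). Olfr724, whose GC content of 23.9% was the lowest of all members, read 2.01 and 1.09, with input well above background at 0 and 1 of its 3 probes. Olfr746 read 0.88 and 1.86, and none of its 4 probes had IP signal well above background on any array. Olfr815, Olfr724 and Olfr746 thus rested largely on dim probes, while Olfr380 had IP signal well above background at all 3 of its probes.

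The other 4 had more probes, with IP signal bright at most of them at Olfr1395 and Olfr734 alone. Olfr194 (chr16:59062536-59063576) read 1.56 and 1.24 (mean 1.40 ± 0.23, SD, n = 2, limma adjusted p = 0.000363), with input bright at 5 of 7 probes on both arrays. Olfr1395 (chr11:48989563-48992526) read 1.63 and 1.02 (mean 1.32 ± 0.43, SD, n = 2, limma adjusted p = 0.000706), with input bright at 11 and 12 of 12 probes. Olfr734 (chr14:49241943-49245091) read 1.48 and 1.01 (mean 1.25 ± 0.33, SD, n = 2, limma adjusted p = 0.000791), with input bright at 14 and 16 of 16 probes. Olfr847 read 0.86 and 1.51 with input bright at 11 of 17 probes. On the PRDM2 arrays IP signal was bright at 9 and 8 probes of Olfr1395 and 13 and 11 of Olfr734. It was bright at 3 and 3 probes of Olfr194 and 4 and 7 of Olfr847. At Olfr194, Olfr1395 and Olfr734 both PRDM2 arrays and the H3K9me2 array were all above 1, as they were at Olfr815 and Olfr724, and these 5 had the highest minimum over the 3 arrays among the members.

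The members called lower were few and short. Olfr441 (chr6:43044323-43044985) read -1.27 and -1.07 (mean -1.17 ± 0.14, SD, n = 2, limma adjusted p = 0.000865), with input bright at all 4 probes on both PRDM2 arrays but IP signal bright at 1 and 0 of them. Olfr207 read -0.89 and -0.75, Olfr968 -0.53 and -0.81, Olfr169 -0.45 and -0.88, and Olfr1454 -0.60 and -0.62, each over 3 or 4 probes. Input was bright at all of these probes on both PRDM2 arrays, but few had bright IP signal. IP was bright at 0 and 1 of 4 probes of Olfr207, 1 and 1 of 3 of Olfr968, and 0 and 0 at both Olfr169 and Olfr1454. Olfr891, over 14 probes, read -0.54 and -0.63 (limma adjusted p = 0.0307), with IP signal bright at 2 and 5 of them. The median number of probes of these 6 promoters was 4.

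The receptors named because they are known from ligands, loci or mouse models stood in the middle of the range, with 1 exception. Olfr15, a receptor that responds to many odorants, read 1.23 and 1.09 on the PRDM2 arrays (mean 1.16 ± 0.10, SD, n = 2, limma adjusted p = 0.00087) and 0.55 on the H3K9me2 array. All 12 of its probes had bright input on every array, but with a loess normalization within each array its PRDM2 mean was -0.041. Olfr16 (MOR23), the receptor for the odorant lyral, read -0.02 and -0.23, and its H3K9me2 value of -0.98 lay below both. Olfr151 (M71), the acetophenone receptor used in many mouse models, read 0.04, 0.01 and 0.05, within 0.05 on all 3 arrays.

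Olfr1508 and Olfr1509 belong to the MOR28 cluster on chromosome 14, which is governed by the H enhancer. Olfr1508 read 0.61, 0.27 and 0.13, and Olfr1509 read -0.15, 0.20 and -0.20, so that neither passed the limma test (adjusted p = 0.1 and 0.928). Olfr49, on the same chromosome, read 0.03, 0.31 and 0.19. Olfr90 and Olfr124 lie in the receptor cluster linked to the major histocompatibility complex on chromosome 17. Olfr90 read 0.11, -0.20 and 0.31, and Olfr124 read 0.31, 0.31 and -0.04. Olfr160 (M72) and Olfr1507 (MOR28) had no promoter that could be tested.

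The start-proximal sequences of Olfr15, Olfr16 and Olfr124 show how these promoters differ and where the array read them. Each line gives the 250 bases before the gene start in RefSeq (build GRCm38.p6), 5′ to 3′ along the gene, with the arrayed probe in capitals. For receptor genes that start can be the coding start, where upstream exons are not annotated.

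Olfr15, chr16:3838725-3838974, plus strand: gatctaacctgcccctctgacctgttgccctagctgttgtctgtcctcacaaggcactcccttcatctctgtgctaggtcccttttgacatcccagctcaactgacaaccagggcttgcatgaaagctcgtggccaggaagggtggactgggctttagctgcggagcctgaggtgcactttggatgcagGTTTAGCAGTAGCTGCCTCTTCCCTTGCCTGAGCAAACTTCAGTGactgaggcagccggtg

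Olfr16, chr1:172956518-172956767, plus strand: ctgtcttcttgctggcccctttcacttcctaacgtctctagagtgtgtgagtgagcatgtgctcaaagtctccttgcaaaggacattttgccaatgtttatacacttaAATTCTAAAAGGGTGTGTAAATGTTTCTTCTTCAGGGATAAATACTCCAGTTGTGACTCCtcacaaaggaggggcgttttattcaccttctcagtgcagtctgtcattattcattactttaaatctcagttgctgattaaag

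Olfr124, chr17:37804819-37805068, plus strand: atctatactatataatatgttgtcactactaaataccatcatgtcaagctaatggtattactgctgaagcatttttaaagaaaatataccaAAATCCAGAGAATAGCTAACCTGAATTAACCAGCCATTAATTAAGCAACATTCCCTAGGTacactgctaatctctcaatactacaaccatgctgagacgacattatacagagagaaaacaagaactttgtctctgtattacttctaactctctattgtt

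The probe in capitals read 3.85 and 1.76 on the PRDM2 arrays and 0.76 on the H3K9me2 array at Olfr15. It read 0.21, -0.68 and -1.5 at Olfr16, and -0.35, -0.09 and 1.97 at Olfr124. The high PRDM2 value and the high H3K9me2 value were thus on different genes among these 3, each from 1 probe. Log2 input on the H3K9me2 array was 11.1 at the probe of Olfr15, 8.02 at Olfr16 and 4.90 at Olfr124. The member median was 6.90, so that the high H3K9me2 value of Olfr124 stood on low input.

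H3K9me2 had the opposite standing to PRDM2 at the receptors. The promoter values on the H3K9me2 array ran from -2.45 to 2.56 with a median of 0.46, against -0.23 over all promoters, and 356 of the 509 members lay above 0. H3K9me2 lay above both PRDM2 arrays at 285 members (56.0%), against 7.64% of all promoters. The difference of the PRDM2 mean and H3K9me2 had a median of -0.27 at the members and 0.85 over all promoters. A limma fit over the 3 arrays must take the spread of the unreplicated H3K9me2 array from the PRDM2 pair. In it 95 members had PRDM2 below H3K9me2 (18.7%), where 1.6% of all promoters did, and 39 members had PRDM2 above H3K9me2 (7.66%), where 41.1% did. This direction turned under another background correction: with normexp on the raw signals the median H3K9me2 value of the members was -0.19, against 0.38 over all promoters, and the median difference was 0.42. With probes of bright input alone the median H3K9me2 value of the members was 0.068, against -0.30 over all promoters. PRDM2 then lay below H3K9me2 at 53 of 428 members (12.4%, background 1.03%) and above it at 69 (16.1%, background 47.9%).

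An excess of members with PRDM2 below H3K9me2 was seen under every setting in which any promoter was called for this difference. With normexp and with the median over probes 0 of 16164 promoters were called, so that those settings cannot show an excess or its absence. With normexp the median difference of the members turned sign, as given above. Relative to the median promoter, limma placed PRDM2 below H3K9me2 at 158 members (31.0%, background 3.03%) and above it at 0 (background 0.736%). The counts were 310 and 9 at an unadjusted p under 0.05. With the trend on probe GC content removed, PRDM2 lay below H3K9me2 at 93 members (18.3%, background 1.61%). It lay above at 8 (1.57%, background 4.53%). PRDM2 itself was then called higher at 119 members (background 15.9%) and lower at 1 (background 1.36%), so that the receptors' share of calls passed that of all promoters in that setting. With class medians of GC content and input subtracted, PRDM2 lay below H3K9me2 at 5 members (0.982%, background 0.0557%). It lay above at 0 (background 0.0619%), with 177 below and 18 above at an unadjusted p under 0.05. The backgrounds are for adjusted calls, and the shares of all promoters at an unadjusted p are not given here.

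**Figure D1:**
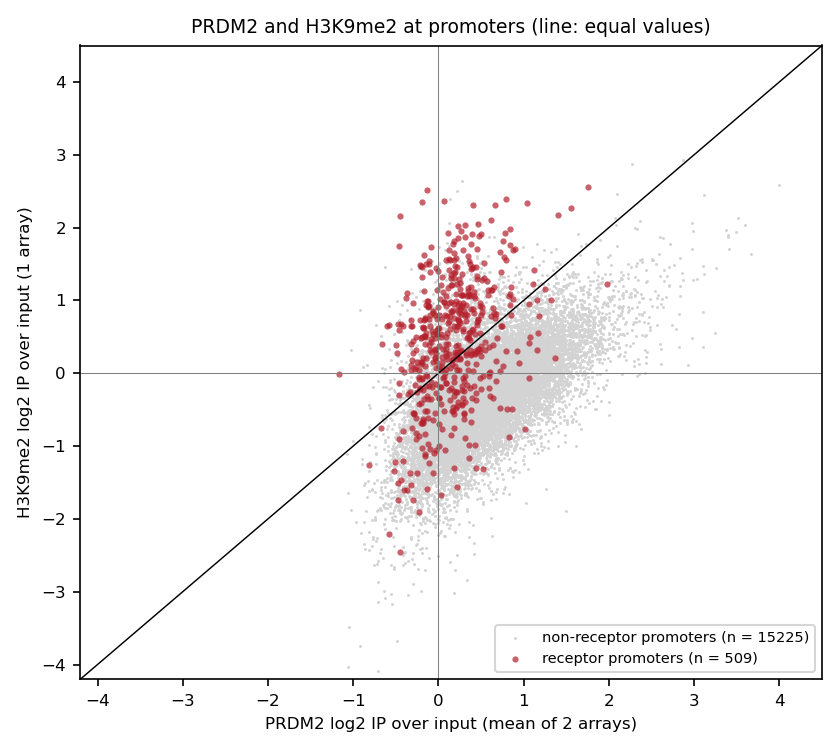
Each point is 1 promoter, with the PRDM2 log2 ratio of IP over input (mean of 2 arrays) across and the H3K9me2 log2 ratio (1 array) upward, and the diagonal marks equal values. The 509 receptor promoters (red) have a median H3K9me2 value of 0.46 and many lie above the diagonal, where few of the 15225 non-receptor promoters (grey) lie.

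The highest H3K9me2 values were at Olfr380 (2.56), Olfr955 (2.52), Olfr782 (2.40), Olfr933 (2.37), Olfr201 (2.36), Olfr136 (2.34), Olfr723 (2.32) and Olfr772 (2.31). Olfr772, the last of these 8, still stood above 99.9% of all promoters. Olfr933 had 14 probes, and each of the others had only 3 to 5. Input on the H3K9me2 array was bright at 4 of 14 probes of Olfr933, 2 of 4 of Olfr955, 1 of 3 of Olfr201 and 2 of 5 of Olfr136. It was bright at 2 of 3 probes of Olfr380, 1 of 3 of Olfr782, 1 of 4 of Olfr723 and 1 of 5 of Olfr772. The largest differences of PRDM2 below H3K9me2, with both PRDM2 arrays on 1 side, were at Olfr955 (-2.66 ± 0.34, SE, limma adjusted p = 0.0106), Olfr117 (-2.62), Olfr201 (-2.55), Olfr933 (-2.31) and Olfr386 (-2.21). None of these 5 passed the limma test for PRDM2 by itself, and their values on the PRDM2 arrays lay between -0.65 (Olfr201, array 2) and 0.25 (Olfr201, array 1).

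The lowest H3K9me2 values were at Olfr257 (-2.45), Olfr1333 (-2.21), Olfr1415 (-1.91), Olfr984 (-1.75) and Olfr281 (-1.74). Input was bright on the H3K9me2 array at all 9 probes of Olfr257, all 6 of Olfr1333, all 12 of Olfr1415 and all 15 of Olfr281, and at 7 of 10 of Olfr984. The low end was therefore measured on brighter input than the high end, but this did not hold for IP signal. IP was bright on that array at 5 of 9 probes of Olfr257, 4 of 6 of Olfr1333, 9 of 12 of Olfr1415, 4 of 10 of Olfr984 and 8 of 15 of Olfr281. At the high end it was bright at every probe of Olfr380, Olfr955 and Olfr782. It was bright at 10 of 14 of Olfr933, 2 of 3 of Olfr201, 3 of 5 of Olfr136, 2 of 4 of Olfr723 and 2 of 5 of Olfr772. The largest differences of PRDM2 above H3K9me2 were at Olfr257 (2.00 ± 0.35, SE, limma adjusted p = 0.0111), Olfr329 (1.85), Olfr317 (1.79), Olfr414 (1.77) and Olfr1383 (1.74). At Olfr257 PRDM2 itself read -0.36 and -0.54, while Olfr414 read 1.53 and 0.49 and was among the PRDM2 calls.

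The higher H3K9me2 ratio of the receptor probes went with low input, and among brighter probes with higher IP signal as well. Against non-receptor probes of like GC content, the member probes on the H3K9me2 array had median log2 differences of -0.06 in IP signal, -1.20 in input signal and 1.08 in the ratio. On PRDM2 array 1 the same differences were -0.47, -0.55 and 0.13, and on array 2 they were -0.19, -0.27 and 0.14. Among probes with both channels well above background, a filter chosen after the data were seen, the differences on the H3K9me2 array were 0.33 in IP signal, -0.47 in input and 0.71 in the ratio. Among probes with input well above background they were 0.62, -0.49 and 0.89. With both channels bright, the ratio differed by 0.30 on PRDM2 array 1 and by 0.06 on array 2. Against non-receptor probes of like GC content and like input together, the median difference was 0.49 on the H3K9me2 array, with 62.8% of member probes above 0, and 0.01 and 0.05 on the PRDM2 arrays. With normexp, the matched H3K9me2 difference was 0.052.

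**Figure D2:**
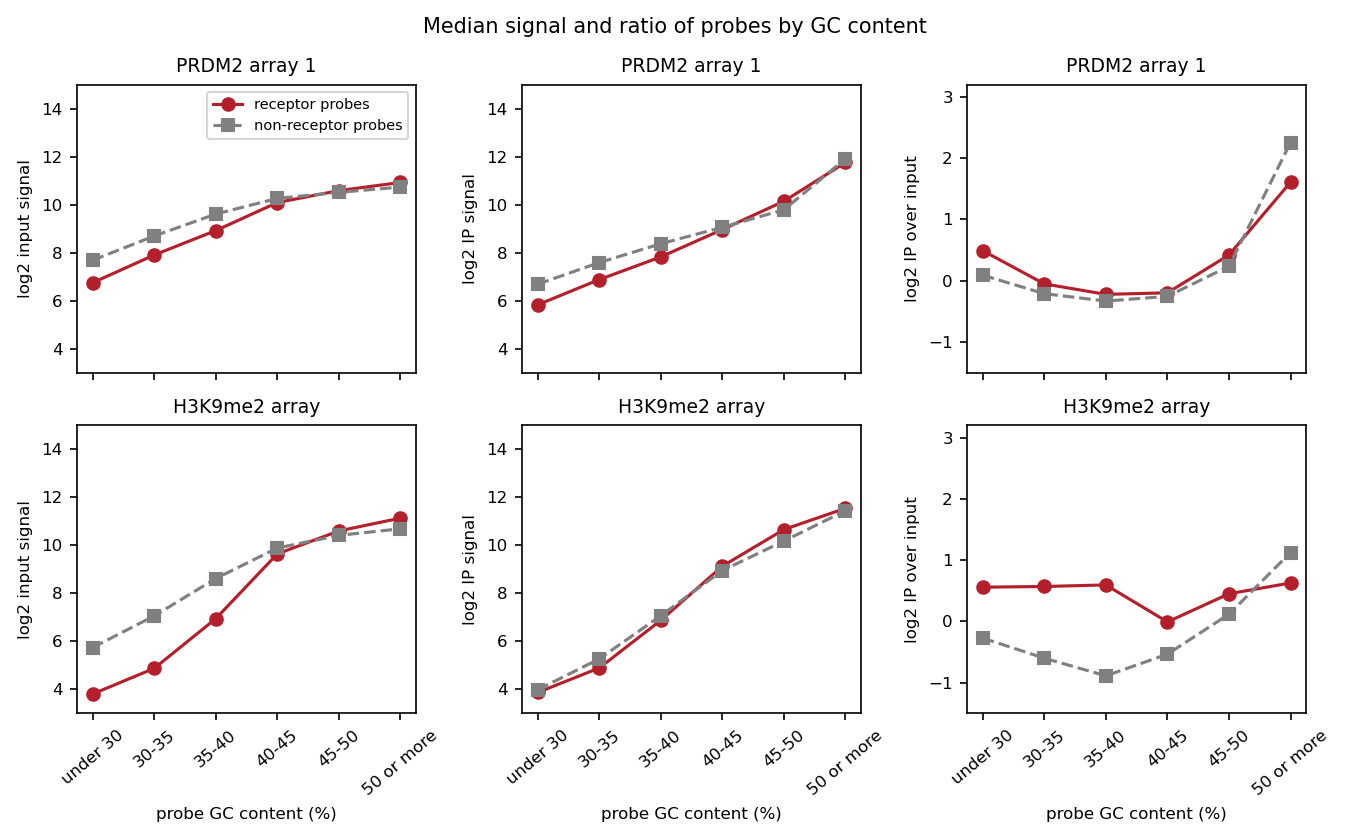
Median log2 input signal, log2 IP signal and log2 IP over input (columns) of receptor probes (red circles) and non-receptor probes (grey squares) in 6 classes of probe GC content, on PRDM2 array 1 (upper row) and the H3K9me2 array (lower row). On the H3K9me2 array receptor input lies below at GC contents under 45% and the receptor ratio lies above at those under 50%, while receptor IP lies below under 40% and above at 40% or more (10.7 against 10.2 at 45 to 50%).

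Between 35 and 40% GC, where 2908 member probes lie, the median log2 input on the H3K9me2 array was 6.95 at the members and 8.62 at the non-receptor probes, and the IP medians were 6.88 and 7.07. At 40 to 45% GC, with 932 member probes, the input medians were 9.65 and 9.89, the IP medians 9.13 and 8.95 and the ratios -0.0068 and -0.53. At 45 to 50% GC the input medians were 10.6 and 10.4, the IP medians 10.7 and 10.2, and the ratio was 0.45 at 282 member probes and 0.12 at the others. At 50% GC or more the ratio on PRDM2 array 1 was 1.61 at 103 member probes and 2.25 at the non-receptor probes. Receptor probes of high GC content thus also read high for PRDM2, though below the non-receptor probes.

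Promoters fell in the same order. The 179 member promoters under 35% GC had a median H3K9me2 value of 0.91, the 270 between 35 and 40% had 0.29 and the 60 at 40% or more had -0.48. Non-receptor promoters in the same classes read 0.47, -0.36 and -0.25, so that the receptors were higher in the first pair of classes and lower in the last. The last class is open, with a median GC content of 41.9% at the members and 45.1% at the non-receptor promoters. Matched on GC content and input, its H3K9me2 medians were 0.014 at the members and -0.087 at the non-receptor promoters. Of the 95 members with PRDM2 below H3K9me2, 62 were under 35% GC, 33 between 35 and 40%, and 0 at 40% or more. These were 34.6%, 12.2% and 0% of the tested members of each class, beside 16.2%, 2.02% and 0.0553% of the non-receptor promoters, whose shares fell in the same order. PRDM2 showed no such order: the member medians on array 1 were 0.21, 0.17 and 0.33, and on array 2 they were 0.24, -0.01 and 0.02. PRDM2 was called higher at 20.7%, 6.30% and 21.7% of the members of these classes. The non-receptor shares were 15.2%, 10.3% and 56.6%, so that the members' share was above in the first class and below in the others. In the last class, which differs in GC content, the matched PRDM2 medians of members and non-receptor promoters were 0.280 and 0.283 on array 1. On array 2 they were 0.059 and 0.14.

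By chromosome, H3K9me2 spread more widely than PRDM2. The median H3K9me2 value was highest on chromosome 10 (0.95, 56 promoters), then 16 (0.85, 34), 17 (0.70, 41), 9 (0.67, 121) and 19 (0.58, 55). It was lowest on chromosome 15 (-1.37, 7 promoters), then 4 (-0.52, 24) and 1 (-0.36, 26). Chromosomes 3, 13, 14, 6 and 11 had medians of 0.28, 0.27, 0.25, 0.14 and 0.02, and the 3 promoters of chromosome 8 had -0.24. The ranges of neighbours in this order overlapped widely, as on chromosome 10 (-0.87 to 2.40) and chromosome 16 (-1.26 to 2.36). Chromosome 15 (-2.45 to -0.34) did not reach the median of any other chromosome save that of chromosomes 1 and 4. The PRDM2 medians stayed between 0.02 and 0.71 on array 1 and between -0.29 and 0.26 on array 2.

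**Figure D3:**
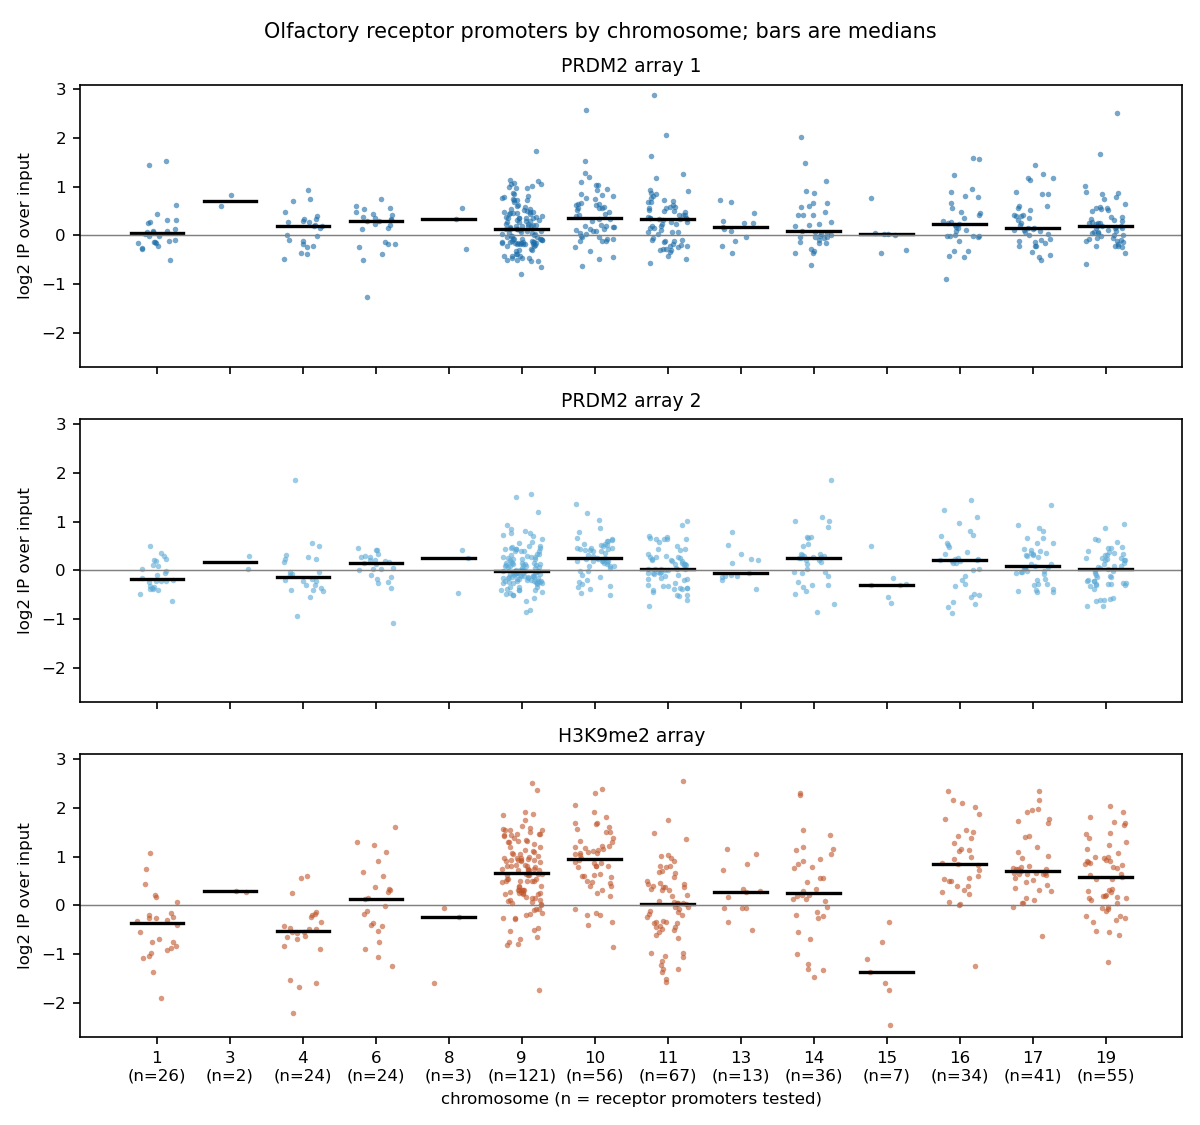
Log2 IP over input of each tested receptor promoter on PRDM2 array 1, PRDM2 array 2 and the H3K9me2 array (panels from top), by chromosome with the number of promoters below, and the median as a bar. PRDM2 medians stay near 0, while H3K9me2 medians run from -1.37 on chromosome 15 to 0.95 on chromosome 10.

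PRDM2 calls by chromosome were 13 of 56 on chromosome 10, 11 of 121 on chromosome 9, 9 of 67 on chromosome 11, 8 of 34 on chromosome 16, 8 of 41 on chromosome 17, 7 of 36 on chromosome 14 and 6 of 55 on chromosome 19. Each of these shares is below the 46.9% of all promoters. At non-receptor promoters the share was 15.2% under 35% GC and 10.3% between 35 and 40%, where the median GC contents of these chromosomes' members lie. Chromosomes 3, 6 and 8 had no member called higher. The members at the top of their chromosome among those with at least 5 probes included Olfr1357 on chromosome 10 (0.94 and 1.18), Olfr94 on chromosome 17 (1.18 and 0.93), Olfr157 on chromosome 4 (0.92 and 0.51) and Olfr466 on chromosome 13 (0.47 and 0.79). Olfr1418 led chromosome 19 with 1.68 and 0.20, where the arrays lay far apart. Olfr282 led chromosome 15 with 0.77 and 0.50, beside an H3K9me2 value of -0.34.

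Grouped by position, with neighbours at most 1000000 bp apart, the members formed 35 clusters, of which 19 held at least 5 tested promoters and 479 promoters in all. The median H3K9me2 value was above 0 in 13 of the 19, and both PRDM2 medians were above 0 in 10. The largest cluster, 93 promoters on chromosome 9 from Olfr151 to Olfr986 (chr9:37480528-39938637), had a median H3K9me2 value of 0.65 and PRDM2 medians of 0.07 and -0.02. The other cluster of chromosome 9, with 28 promoters from Olfr24 to Olfr873, read 0.86 for H3K9me2 and 0.33 and 0.12 for PRDM2. The 50 promoters of the chromosome 10 cluster from Olfr9 to Olfr827 (chr10:128390379-129616577) had the highest H3K9me2 median, 1.06, and PRDM2 medians of 0.32 and 0.30. The cluster on chromosome 17 that is linked to the major histocompatibility complex (41 promoters, Olfr90 to Olfr136) read 0.70 for H3K9me2, with 39 of 41 promoters above 0, and 0.16 and 0.08 for PRDM2.

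A few clusters stood at the other end. The 7 promoters of chromosome 15 from Olfr285 to Olfr234 (chr15:98140608-98325995) had an H3K9me2 median of -1.37, with 0 of 7 above 0. The 8 promoters of chromosome 1 from Olfr1416 to Olfr12 had -0.98, and the clusters of chromosome 4 had -0.63 (6 promoters) and -0.50 (13 promoters). These clusters were also high in GC content and input. The median GC content was 42.1% on chromosome 15 and 43.1% in the chromosome 1 cluster, against 33.8% in the chromosome 10 cluster. Log2 input on the H3K9me2 array relative to all probes of like GC content was 0.85 and 0.41 in the first pair and -1.66 in the chromosome 10 cluster. Across the 19 clusters the H3K9me2 median followed GC content with r = -0.94 and Spearman's rho = -0.96, and input relative to GC content with r = -0.94 and rho = -0.96. These are descriptions over clusters read on 1 array, whose input channel is also the denominator of the ratio. For the PRDM2 mean the values of r were -0.39 and -0.47. The part of input signal in the H3K9me2 medians was not tested beyond the matched comparison above, where 16 of the 19 clusters had a matched H3K9me2 median above 0.

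**Figure D4:**
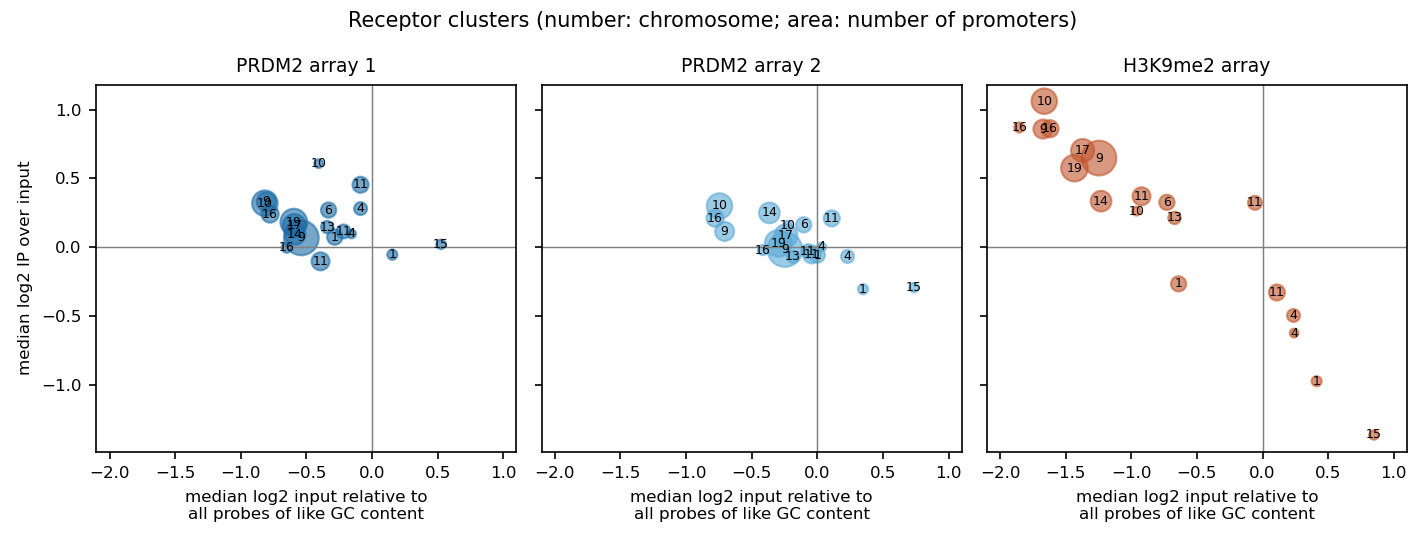
Each circle is 1 of 19 receptor clusters, numbered by chromosome and with area by number of promoters, with the median log2 input relative to all probes of like GC content across and the median log2 IP over input upward, on each array. On the H3K9me2 array the clusters fall along a line from high ratio at low input (1.06 on chromosome 10) to low ratio at high input (-1.37 on chromosome 15), and on the PRDM2 arrays they stay near 0.

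Position within the promoter gave the same pairing of input and ratio. For 319 member promoters a probe matched the RefSeq sequence around the gene start, which placed 4085 probes by their distance from it, and all 123 further matching probes of members fell within 5 bp of the distance so found. In the 500 bp before the start the median H3K9me2 value of member probes was 0.56, and log2 input relative to all probes of like GC content was -1.06. In the 500 bp after it the H3K9me2 value was -0.32 and that input was 0.31. Non-receptor probes went the other way, from 0.03 before the start to 0.63 after it. Against probes of like GC content and input, the member medians for H3K9me2 were 0.43 before the start and 0.02 after it.

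The PRDM2 arrays differed in direction at the receptor start. Member probes read -0.15 and -0.23 on arrays 1 and 2 in the 500 bp before the start and -0.25 and -0.06 in the 500 bp after it. Non-receptor probes read 0.13 and 0.23 before and 1.17 and 1.30 after. Their median GC content rose from 44.4 to 51.1% over the same step, while that of the member probes rose from 36.7 to 40%. Matched on GC content and input, the member medians went from -0.0072 to -0.023 on array 1 and from -0.0061 to 0.18 on array 2, and the PRDM2 medians of both kinds of probe lay between -0.06 and 0.18 on both sides of the start.

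**Figure D5:**
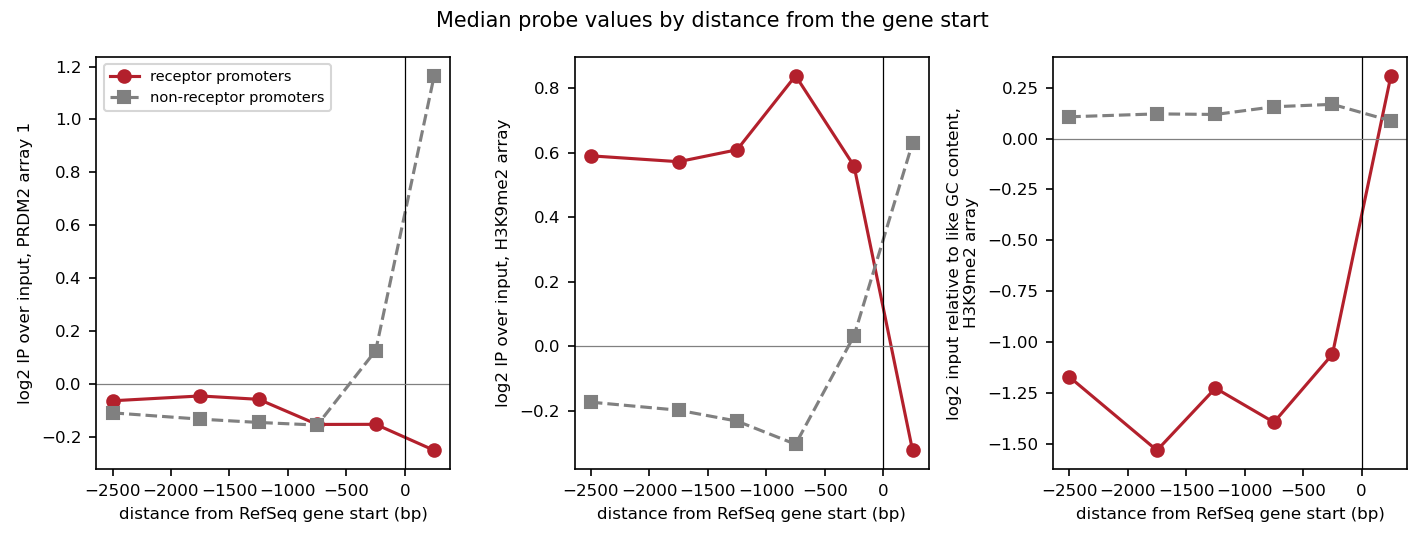
Median log2 IP over input on PRDM2 array 1 and on the H3K9me2 array, and median log2 input relative to probes of like GC content on the H3K9me2 array, by distance of the probe from the RefSeq gene start in bp, for receptor promoters (red circles) and non-receptor promoters (grey squares), with a different vertical scale in each panel. Past the start receptor H3K9me2 falls to -0.32 as input rises to 0.31, while PRDM2 rises to 1.17 at the non-receptor promoters alone.

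Among single probes, limma called 32 of 6028 member probes higher for PRDM2 (0.531%), where 4.99% of all 236109 probes were, and 0 lower, where 0.00381% were. At an unadjusted p under 0.05 there were 542 higher (8.99%) and 308 lower (5.11%), beside 20.8% and 6.78% of all probes. The 32 probes lay on 32 different promoters, and 12 of these were among the 67 promoters called. The sequences below show the called probes with the 4 highest means, of which Olfr314 is printed above, and those of 4 promoters named in the text. Capitals mark the tetramer CACC, the pentamer CACAC and their reverse complements, which were chosen after the called sequences were seen.

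Olfr800, chr10:129062170-129062229: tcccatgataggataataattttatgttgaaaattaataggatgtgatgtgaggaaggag

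Olfr802, chr10:129087713-129087772: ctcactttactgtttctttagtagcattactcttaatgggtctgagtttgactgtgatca

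Olfr273, chr4:52879642-52879701: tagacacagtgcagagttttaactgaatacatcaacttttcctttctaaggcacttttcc

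Olfr122, chr17:37379212-37379271: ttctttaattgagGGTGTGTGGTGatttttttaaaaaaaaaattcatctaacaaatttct

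Olfr466, chr13:65165631-65165690: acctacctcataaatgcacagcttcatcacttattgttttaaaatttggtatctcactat

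Olfr15, chr16:3754640-3754687: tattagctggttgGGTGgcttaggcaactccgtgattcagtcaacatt

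Olfr734, chr14:49241943-49242000: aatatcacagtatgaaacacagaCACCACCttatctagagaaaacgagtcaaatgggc

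The probe of Olfr800 read 7.01 and 6.14 on the PRDM2 arrays, with input intensities of 51.3 and 89.6 units under IP intensities of 3504 and 3629. The probe of Olfr273 read 5.94 and 6.81 over input of 1097 and 1335, with an H3K9me2 value of 0.07. The probes of Olfr122, Olfr15 and Olfr734 read 5.77 and 4.08, 4.31 and 3.88, and 4.39 and 3.80. Within 500 bp of the called probe of Olfr734 the other probes averaged -1.03 and -3.00, so that its signal did not extend to them.

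Such lone probes were the rule. The 32 called probes had medians of 4.31 and 4.12 on the PRDM2 arrays, and the probes within 500 bp of them on the same promoter had 0.17 and 0.15. Both arrays were above 1 in the neighbours of 3 of the 31 called probes that had any. Over all 11787 called probes the neighbours' medians were 1.85 and 1.88. The 964 called non-receptor probes under 45% GC had neighbours at 0.09 and -0.02, much as the receptor probes did. Sonicated chromatin usually gives fragments longer than the spacing of the probes, so that neighbours commonly share a signal. The neighbour comparison was chosen after the data were seen.

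The tetramer CACC, on either strand, was in 17 of the 32 called member probes (53.1%), in 21.5% of all member probes and in 26.8% of all probes of the array. CACAC, on either strand and at times overlapping CACC, was in 10 of the 32 (31.3%), in 9.52% of member probes and in 9.31% of all probes. These are counts of letters in probes picked for their value, with no test. Of the 3 highest called probes printed just above, none holds either motif.

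Runs of at least 3 neighbouring probes above the 95th percentile of the array were rare. On both PRDM2 arrays 0 of 537 members had such a run and 0.261% of all promoters did, a background so low that nothing is read from the members' count. On the H3K9me2 array 19 members had one (3.54%), where 0.631% of all promoters and 0.478% of non-receptor promoters did. The 19 included Olfr100 with 4 probes over 1431 bp, Olfr893 and Olfr1490 with 4 probes each, and Olfr933 and Olfr955, which were also named for their H3K9me2 level. Input was bright on the H3K9me2 array at every probe of the run at 2 of the 19, Olfr734 and Olfr735. At the Olfr734 run the 3 probes averaged 2.89 and 1.53 for PRDM2 and 3.16 for H3K9me2, while at Olfr735 they averaged 0.22, -0.62 and 3.2.

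Members that stood above non-receptor probes of like GC content and input on both PRDM2 arrays were led by Olfr1357, Olfr734, Olfr194, Olfr122 and Olfr136. After the class medians were subtracted Olfr1357 (chr10:78014911-78018246) read 1.07 and 1.41, with input bright at all 9 probes on every array, and Olfr734 read 1.63 and 1.23. With the class medians subtracted from all promoters, limma called 37 members higher, where 8.7% of all promoters were, and 1 lower, where 0.792% were. Of the 37, 31 were among the 67.

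The order of PRDM2 values over members was less repeatable than over the array. Between the PRDM2 arrays the promoter values correlated with r = 0.44 over the 509 members and r = 0.73 over all 16164 promoters, across promoters that share each array's input and dye. With class medians of GC content and input subtracted, the gap was narrower, with r = 0.37 over the members and r = 0.51 over all promoters. With H3K9me2 the member values had r = 0.28 and 0.33.

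Other chemosensory receptors are the families most like these. The 122 tested olfactory receptor promoters of chromosome 2 had an H3K9me2 median of 0.89 and PRDM2 medians of 0.32 and 0.31, with a median GC content of 34.2% against 36% for the members. The 156 of chromosome 7 had 0.45, 0.25 and 0.05. The 98 vomeronasal receptor promoters, of pheromone receptors, had 0.50, 0.16 and -0.05, the 35 taste receptor promoters 0.31, 0.09 and -0.0015, and the 13 trace amine receptor promoters 0.10, 0.36 and -0.07. PRDM2 was called higher at 19.7%, 22.4%, 13.3%, 8.57% and 15.4% of these 5 families, all below the 46.9% of all promoters. The median GC content of each family was under 40%, where the non-receptor shares were 15.2% (under 35% GC) and 10.3% (35 to 40%). No difference between the families was tested.

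The promoters of genes that carry the olfactory signal or take part in the choice of receptor were also on the array. Of 50 listed names, 45 had a tested promoter, and Gnal and Pde4a had 2 each, which gave 47 promoters. Of these, 30 were higher for PRDM2 (63.8%) and 1 lower, beside the 46.9% and 1.08% of all promoters. PRDM2 lay above H3K9me2 at 28 of the 47 (59.6%) and below it at 0 by limma's adjusted p, beside 41.1% and 1.6% of all promoters. With so low a background, nothing is read from the 0 below. At an unadjusted p under 0.05 there were 33 above and 0 below, and the shares of all promoters at that threshold are not given here. The medians were 0.84 and 0.66 for PRDM2 and -0.16 for H3K9me2, at a median GC content of 45%. At non-receptor promoters of 40% GC or more (median 45.1%) PRDM2 was called higher at 56.6% and lay above H3K9me2 at 47.7%. Whether the list differs from those shares was not tested. Of the transduction genes, Adcy3, the adenylyl cyclase of the cilia, read 1.22 and 1.29, and Gng13, a G protein subunit, 2.55 and 1.24. Omp, the olfactory marker protein, read 1.04 and 1.04. Cnga2, a subunit of the cyclic nucleotide-gated channel, read 0.51 and -0.47 and was not called.

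Among regulators of receptor choice, Lhx2, a homeodomain factor that binds receptor enhancers, read 1.28 and 0.98, and its cofactor Ldb1 1.20 and 0.59. Emx2 read 1.25 and 1.55. Aof2 (Kdm1a), the lysine demethylase LSD1, read 1.96 and 1.97. The H3K9 methyltransferase genes Ehmt1 and Ehmt2 read 2.24 and 1.78, and 1.56 and 1.63. Cbx5, which encodes the heterochromatin protein HP1 alpha, was the gene called lower, at -0.61 and -0.55 (limma adjusted p = 0.0313). These are readings at the promoters of those genes and say nothing of their expression.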

How the data were processed

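The deposited processed intensities were, per the file headers, derived by Agilent Feature Extraction 10.5.1.1 from spot signals by detrending, background subtraction with negative controls, linear dye normalization and surrogate values for dim spots. The deposited raw intensities were spot means and local background medians. The deposited log10 ratios of red over green were used only to check the processed signals, and flags marked control, outlier and dim spots. The authors also deposited a table of log2 ratios (medians 0.124, 0.103 and 0.278 for the first and second PRDM2 array and the H3K9me2 array); its scale and direction were taken from its correlation with the scanner ratios (0.965, 0.940 and 0.972), and its centring is unknown.

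Log2 ratios of Cy5 over Cy3 processed signal were taken for 237203 probes, without 773, 107 and 218 outlier spots on the 3 arrays, and centred on each array's median probe. Probes of 1 gene name were averaged into promoters, split at gaps over 10000 bp. PRDM2 was tested against 0, and against H3K9me2, with limma 3.58.1 (lmFit, eBayes) in R 4.3.3 over all promoters or probes, with Benjamini-Hochberg adjusted p under 0.05, a procedure tested on simulated data. With 2 arrays of 1 antibody and 1 of the other, the number of arrays limits the precision. Matching used 17 classes of GC content (20 were asked for, and ties merged some) by 5 of input, against probes of named genes that are no olfactory, vomeronasal, taste or trace amine receptor. Distances used the first RefSeq start listed for a gene that a probe matched.

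The members, gene lists and tests were chosen with earlier results of these data known. Members were named by rank: the 8 highest and 5 lowest PRDM2 means among calls with 1 sign on both arrays, the 8 highest and 5 lowest H3K9me2 values, the 5 largest differences each way, the 5 highest minima over the 3 arrays, the 5 highest after class matching, the ends of each chromosome and 10 known receptors in any case. The text gives part of the chromosome ends. Alternatives were normexp, loess, the median promoter as 0, a GC trend, class medians, bright input, the median over probes, the authors' value table, outlier spots kept, at least 5 probes and a variance trend. Further tools were Python 3.11.15, numpy 2.4.6, pandas 2.3.3, statsmodels 0.14.6 and matplotlib 3.10.9.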

Additional observations from a re-analysis of the deposited data

How the results depend on the processing

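For the members' PRDM2 values, 67 calls higher and 6 lower became 0 and 0 with normexp (94 and 8 at an unadjusted p under 0.05), 117 and 21 with loess (23.0% and 4.13%, beside 20.4% and 7.10% of all promoters), 13 and 151 with the median promoter as 0, 119 and 1 with the GC trend removed, 37 and 1 with class medians subtracted, and 5 and 0 with the median over probes (0.982% and 0%, beside 5.69% and 0.0866%). With bright input they were 72 and 10 of 428 (16.8% and 2.34%, beside 48.9% and 1.37%), in the value table of the authors they were 48 and 14 (9.43% and 2.75%, beside 41.1% and 1.35%), with at least 5 probes 56 and 3 of 460 (12.2% and 0.652%, beside 48.5% and 0.970%) and with a variance trend 86 and 15 (16.9% and 2.95%, beside 47.7% and 1.48%). Of the 67, 50 were called higher again with loess, 36 with bright input (47 could be tested), 41 in the value table and all 67 with a variance trend. Unadjusted counts of promoters, here and in the next paragraph, have no share of all promoters beside them. The median of 0.13 over both arrays was 0.25 with normexp, -0.37 with the median promoter as 0, 0.34 with the GC trend removed and -0.12 with the median over probes, and it ran from 0.08 to 0.19 with either PRDM2 array left out.

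The H3K9me2 median of 0.46 was -0.19 with normexp, 1.27 with loess, 0.69 with the median promoter as 0, 0.92 with the GC trend removed, 0.74 with class medians subtracted, 0.068 with bright input, 0.56 with the median over probes and 0.37 in the authors' value table. The 39 and 95 promoters with PRDM2 above and below H3K9me2 became 0 and 0 with normexp (99 and 8 unadjusted), 1 and 292 with loess (0.196% and 57.4%, beside 2.82% and 8.44% of all promoters), 0 and 158 with the median promoter as 0, 0 and 5 with class medians subtracted, 69 and 53 of 428 with bright input (16.1% and 12.4%, beside 47.9% and 1.03%), and 0 and 0 with the median over probes (32 and 167 unadjusted); 8 were above with the GC trend removed. The median difference of -0.27 was 0.42, -0.99, -1.003, -0.50, 0.15 and -0.60 under these settings in turn, and -0.53 with the GC trend removed.

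The 32 called probes became 0 with normexp, the GC trend removed, bright input and the authors' value table, and 127 higher and 56 lower with loess. The share of all probes called with loess is not given here, so that nothing is read from those counts. Matched on GC content alone, the median differences of receptor probes were 0.13 and 0.14 for PRDM2 and 1.08 for H3K9me2; with both channels bright as well, they were 0.30, 0.06 and 0.71. The matched H3K9me2 difference of 0.49 was 0.052 with normexp and 0.74 with bright input. With the GC trend removed 16 clusters had both PRDM2 medians above 0, and with normexp 6 had an H3K9me2 median above 0.

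Of 793 comparisons of a named promoter with an alternative setting, 247 kept call and sign, 272 kept their sign and were called in neither, 114 lost a call, 64 gained one and 96 turned sign, 80 of them without a call in either fit. With normexp 29 of 76 turned sign, 18 of them without a call, as for PRDM2 at Olfr449 (0.040), Olfr955 (0.35), Olfr386 (0.29) and Olfr1511 (0.14). Values called in at least 1 fit turned sign with normexp for PRDM2 at Olfr441 (0.059), Olfr891 (0.15), Olfr169 (0.55), Olfr1454 (0.34) and Olfr282 (-0.11) and for the difference at Olfr933 (0.44), Olfr955 (0.40), Olfr386 (0.59), Olfr201 (0.053), Olfr117 (0.50) and Olfr257 (-0.088). They turned with loess for PRDM2 at Olfr317 (-0.44, limma adjusted p = 0.0364), Olfr282 (-0.14) and Olfr15 (-0.041), and with the median over probes at Olfr466 (-0.034) and Olfr122 (-0.28). The causes were not tested. No paired analysis was possible because the H3K9me2 group has 1 array and so shares fewer than 2 replicate numbers with PRDM2. Dim input limits the H3K9me2 values, and 1 array gives them no error.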
